A study of Homo sapiens with 6 samples.

Results

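Cluster 3 of PC9 held 1109 cells, which were 26.4% (25.03 to 27.7, 95% exact binomial interval) of the 4208 PC9 cells that the authors' cell table lists with a cluster number. The members were the cells given number 3 in that table, matched by name to the count table of 11258 PC9 cells. PC9 is a human lung adenocarcinoma line with an activating EGFR deletion, and osimertinib is an inhibitor of the mutant EGFR kinase. The 10 populations were untreated cells (C), cells adapted by stepwise escalation to 8, 16, 32, 75, 150, 300 and 600 nM and to 1.2 µM osimertinib (T0008 to T1.2), and persisters that survived 9 days of 1.2 µM given at once (P1.2). All were of the same line and pooled after tagging, and each was 1 culture. Clones and passage numbers are not given in the sources used here. The measurement was single-cell RNA sequencing, which counts unique molecular identifiers (UMIs) per gene. The name of the authors' cell table holds g1. How the authors chose the listed cells is not otherwise given in the sources used here.

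EGFR signals through RAS and ERK to the D-type cyclins that carry a cell out of the G1 phase, so EGFR inhibitors slow or stop the division of PC9 cells. Genes of S, G2 and M phase are switched on in order as a cell copies its DNA and divides, and they are low in resting cells. Interferon-stimulated genes encode antiviral proteins and are transcribed when factors activated by interferon signalling bind short elements in their promoters. Metallothioneins are small proteins that bind zinc and copper.

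Because the authors formed the cluster from the expression of these same cells, its differences from other cells are a description and carry no test. UMIs were summed over the cells of a group and given per 1000000 UMIs (CPM). A fold is a quotient of 2 CPM values, and its 95% exact binomial interval covers counting error only. Log2 ratios are of CPM + 1. A gene was measured when its higher group had at least 10 CPM and 20 UMIs, and was counted as different at 2-fold or more. Cluster 3 cells had a median of 5906 UMIs, 2671 genes and 8.10% mitochondrial UMIs, against 5397 UMIs, 2450 genes and 8.43% in the other listed cells. No barcode occurred in more than 1 population. Of the 8 epithelial markers all were measured in cluster 3, and their summed level was 8511 to 9736 CPM over populations, against 12842 to 14341 CPM in other listed cells. In cluster 3 and in other listed cells the melanocyte list, with 1 gene measured, summed to 61.9 to 107 and 42.2 to 63.0 CPM, immune markers to 11.1 to 24.9 and 11.1 to 21.7 CPM, fibroblast markers to 7.33 to 18.5 and 7.12 to 11.7 CPM, and endothelial markers to 3.32 to 11.4 and 4.97 to 11.4 CPM. Erythroid markers were at 0. The part of these in the results was not tested. Among lung markers SLPI, a protease inhibitor of airway secretions, was the one measured, and the list summed to 127 to 174 CPM in cluster 3 and 292 to 404 CPM in other listed cells. The cluster is called by its number.

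The share of cluster 3 was highest in the adapted populations at 75 nM and above and low in untreated cells, at 8 nM and in persisters. It held 9 of 169 listed untreated cells (5.33%, 2.46 to 9.87) and 18 of 329 cells at 8 nM (5.47%, 3.27 to 8.51). The 9 untreated cells had a median of 1100 UMIs, against 6758 UMIs in other listed untreated cells, and are too shallow to describe. The share was 10.8% at 16 nM (8.28 to 13.8), 25.1% at 32 nM (21.0 to 29.6), 40.6% at 75 nM (36.3 to 45.02) and 52.6% at 150 nM (47.0 to 58.1). It was 44.8% at 300 nM (40.1 to 49.6), 40.8% at 600 nM (36.1 to 45.6) and 38.7% at 1.2 µM (33.9 to 43.7). The intervals at 300 nM, 600 nM and 1.2 µM overlap each other, and those at 600 nM and 1.2 µM lie below that at 150 nM. Persisters, which met 1.2 µM without escalation, had 19 of 673 listed cells in it (2.82%, 1.71 to 4.37). In the adapted populations from 8 nM to 1.2 µM the listed cells divided mainly between cluster 3 and clusters 2 and 4: cluster 2 took 91.2% at 8 nM and 2.28% at 1.2 µM, and cluster 4 took 0.608% at 8 nM and 57.2% at 1.2 µM. All shares are of listed cells, which were 12.9% of untreated cells, 81.8% of persisters and 31.0% to 39.9% of adapted cells.

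**Figure D1:**
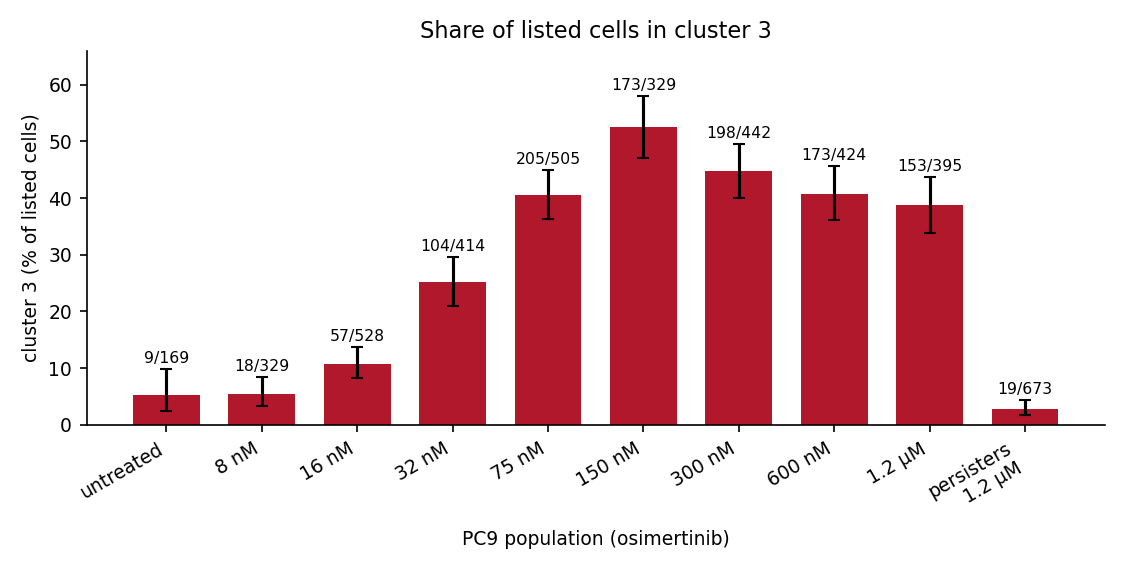
Bars give the percent of listed cells in cluster 3 in each PC9 population, with 95% exact binomial intervals and the number of cells above each bar. The share is 52.6% at 150 nM, 5.33% in untreated cells and 2.82% in persisters.

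Set against the other listed cells of the same culture, cluster 3 had more transcripts of cell division genes, of the metallothionein MT2A and of single genes such as KCNMA1 and LOX, and fewer transcripts of interferon-stimulated genes and of single genes such as PSCA and LCN2. This comparison used the 7 populations from 16 nM to 1.2 µM, which had at least 30 cells on each side, and took the mean of their log2 ratios. Of 9384 genes measured, 184 (1.96%) were higher in cluster 3 and 261 (2.78%) lower, and the median ratio of all genes was 0.03. At least 2-fold higher in each of the 7 populations were 21 genes (0.224%), and at least 2-fold lower in each were 54 (0.575%). With all populations pooled, which mixes dose with cluster, 144 of 9376 genes (1.54%) were higher and 259 (2.76%) lower.

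The promoters of 4 higher and 3 lower genes are shown because each holds a short element that is textbook knowledge for its group. They are the 250 bases before the transcription start from RefSeq (GRCh38.p14), written 5′ to 3′ on the gene's strand. Capitals mark TTTGAA, the core of the cell cycle homology region through which many G2 and M genes are repressed in resting cells, on either strand.
CDKN3, chr14:54396757-54397006, plus strand: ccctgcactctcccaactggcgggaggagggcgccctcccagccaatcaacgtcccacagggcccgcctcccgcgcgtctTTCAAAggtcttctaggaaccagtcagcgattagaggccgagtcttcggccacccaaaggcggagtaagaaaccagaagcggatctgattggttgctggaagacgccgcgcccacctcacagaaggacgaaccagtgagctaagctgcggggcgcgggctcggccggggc
DLGAP5, chr14:55191586-55191835, minus strand: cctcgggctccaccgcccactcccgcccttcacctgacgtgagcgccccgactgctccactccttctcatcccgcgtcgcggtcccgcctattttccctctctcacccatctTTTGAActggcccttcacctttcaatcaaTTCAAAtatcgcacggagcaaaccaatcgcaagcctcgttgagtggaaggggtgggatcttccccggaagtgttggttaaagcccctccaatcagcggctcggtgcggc
KIF4A, chrX:70289854-70290103, plus strand: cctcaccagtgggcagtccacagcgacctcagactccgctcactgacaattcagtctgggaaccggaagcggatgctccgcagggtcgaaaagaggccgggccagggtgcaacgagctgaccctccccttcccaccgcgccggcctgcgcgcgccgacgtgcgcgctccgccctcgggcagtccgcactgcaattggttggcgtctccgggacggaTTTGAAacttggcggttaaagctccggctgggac
PRR11, chr17:59155496-59155745, plus strand: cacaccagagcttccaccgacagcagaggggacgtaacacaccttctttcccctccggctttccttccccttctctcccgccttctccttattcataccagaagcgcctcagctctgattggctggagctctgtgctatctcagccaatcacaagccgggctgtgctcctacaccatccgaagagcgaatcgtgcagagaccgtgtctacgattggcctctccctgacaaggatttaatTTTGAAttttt
The element lies 170 bases before the start in CDKN3, 138 and 109 bases in DLGAP5, 34 bases in KIF4A and 11 bases in PRR11. It occurred in 23 of 44 promoters of the G2 and M phase list (52.3%) and in 8.86% of the 11827 promoters of genes in the count table. Among the 21 genes higher in each population 5 of the 16 with a promoter held it (31.25%), and among the 54 lower genes 3 of 35 did (8.57%). In the next 3 promoters capitals mark GAAA, any 2 bases and GAAA, the repeat in the interferon-stimulated response element, on either strand.
IFI6, chr1:27672193-27672442, minus strand: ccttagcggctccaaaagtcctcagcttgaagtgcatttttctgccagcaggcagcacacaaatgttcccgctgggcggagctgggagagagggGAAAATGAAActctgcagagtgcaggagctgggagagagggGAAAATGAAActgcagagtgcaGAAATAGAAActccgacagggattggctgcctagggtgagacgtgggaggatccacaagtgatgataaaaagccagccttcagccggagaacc
IFIT3, chr10:89327747-89327996, plus strand: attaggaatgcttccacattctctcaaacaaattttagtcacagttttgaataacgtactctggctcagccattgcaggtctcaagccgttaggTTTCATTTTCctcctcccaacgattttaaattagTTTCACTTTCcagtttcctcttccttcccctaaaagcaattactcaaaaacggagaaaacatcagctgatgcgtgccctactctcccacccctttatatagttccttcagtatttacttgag
ISG15, chr1:1013247-1013496, plus strand: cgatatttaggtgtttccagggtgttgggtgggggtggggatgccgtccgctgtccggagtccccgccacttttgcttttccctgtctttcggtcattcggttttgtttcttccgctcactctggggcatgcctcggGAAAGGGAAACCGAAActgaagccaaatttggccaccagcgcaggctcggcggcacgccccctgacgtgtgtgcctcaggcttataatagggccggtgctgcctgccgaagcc
IFI6 has 3 matches and IFIT3 2, and ISG15 has 2 that overlap. The repeat occurred in 17 of 28 promoters of the interferon list (60.7%) and in 2.38% of all 11827. Among the 54 genes lower in each population 9 of the 35 with a promoter in the table held it (25.7%), and among the 21 higher genes 0 of 16 did. A match describes letters and shows no binding.

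Among the lists, that of G2 and M phase had the most genes higher in cluster 3. Of 43 genes of the G2 and M phase list measured, 19 were higher and 0 lower, with a median ratio of 0.89, and of 31 S phase genes 6 were higher and 0 lower, with a median of 0.65. Beside these, 1.96% of all genes were higher and 2.78% lower. CDKN3, a phosphatase that acts on cyclin-dependent kinases, had 200.0, 276, 217, 288, 231, 271 and 260.3 CPM in cluster 3 from 16 nM to 1.2 µM, against 84.1, 46.2, 35.3, 49.6, 31.1, 32.7 and 24.1 CPM in other listed cells. CDKN3 was at least 2-fold higher in each of the 7 populations. PTTG1, the securin that holds sister chromatids together until anaphase, had 367, 559, 516, 561, 533, 571 and 534 CPM in cluster 3, against 205, 158, 68.8, 96.1, 71.0, 45.6 and 46.8 CPM in other listed cells. The 16 nM population differed least in both genes, with a log2 ratio of 1.24 for CDKN3 and 0.83 for PTTG1. Over the 7 populations the mean log2 ratio was 2.72 for the spindle protein DLGAP5 (1.17 to 3.46), 2.25 for BIRC5, the survivin of the chromosomal passenger complex (0.49 to 2.96), and 2.08 for the chromosome motor KIF4A (0.87 to 3.21). PRR11, a gene of late cell cycle, had 2.16 (0.26 to 3.04), and the centromere protein CENPM had 2.08 (0.72 to 3.11). On the S phase side were the thymidylate synthase TYMS (1.72, range 1.18 to 2.13) and RRM2, a subunit of ribonucleotide reductase (1.77, range 1.05 to 3.14). RRM2 was low, at an average of 15.0 CPM in cluster 3 and 4.22 CPM in other listed cells.

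The cells that the authors' table does not list had more of most of these transcripts. The name of that table holds g1, and the part of the authors' choice of cells in this difference was not tested. The summed G2 and M phase level of cluster 3 was 2354 to 2805 CPM over the 7 populations, against 7546 to 8945 CPM in the cells of the same cultures that the authors' table does not list, and 940 to 1314 CPM in cluster 4. MKI67, the proliferation antigen Ki-67, had 43.2 to 68.2 CPM in cluster 3 and 278 to 352 CPM in cells not listed. CDKN3 and PTTG1 differed less: PTTG1 was at 420 to 511 CPM in cells not listed, and CDKN3 at 222 to 322 CPM, so cluster 3 lay near those cells in both genes. CDKN3 was still higher in cells not listed than in cluster 3 in each of the 7 populations. TOP2A, the topoisomerase that untangles sister chromatids, averaged 24.98 CPM in cluster 3 and 325 CPM in cells not listed, and the mitotic kinase CDK1 averaged 13.3 CPM in cluster 3 and 155 CPM in cells not listed.

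Outside the cell cycle, MT2A was the most abundant gene that was higher in all 7 populations. It had 748, 1041, 969.8, 903, 889.6, 816 and 809 CPM in cluster 3 with dose, against 320.1, 262, 255, 241, 192, 162 and 185 CPM in other listed cells. The mean log2 ratio was 1.96 (1.22 to 2.33). Of 5 metallothioneins measured 2 were higher, MT2A and MT1A, beside 1.96% of all genes, and the list median was 0.81. MT1E (0.81) and MT1X (0.39) did not reach 2-fold, and reads of these near-identical genes may be split between them. KCNMA1, the BK potassium channel opened by calcium and voltage, had 44.4, 64.8, 43.3, 44.0, 47.2, 27.5 and 25.1 CPM in cluster 3, against 7.04, 5.27, 9.58, 7.23, 9.62, 4.27 and 5.68 CPM in other listed cells, a mean log2 ratio of 2.43 (1.97 to 3.39). Its counts in cluster 3 were 12 to 58 UMIs per population. ASIC2, an acid-sensing sodium channel, followed with 2.12 (1.51 to 3.54), and LOX, the enzyme that cross-links collagen and elastin, with 2.14 (1.32 to 2.66). RFLNB, a regulator of filamins, averaged 78.7 CPM in cluster 3 and 27.6 CPM in other listed cells and was higher in all 7 populations. From 75 nM to 1.2 µM RFLNB had 103 to 112 CPM in cells not listed, against 79.7 to 94.8 CPM in cluster 3. At 16 and 32 nM it had 34.9 and 69.8 CPM in cells not listed, against 37.0 and 76.5 CPM in cluster 3.

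Further genes of known function were higher in the mean. FGFR1, a receptor tyrosine kinase that can replace EGFR signalling, had a mean log2 ratio of 1.46 (0.28 to 2.24), but 0.91 when every cell was reduced to the same number of UMIs. KISS1, the precursor of kisspeptin, had 1.28 (0.68 to 2.17), with 152 to 325 CPM in cluster 3 and 32.9 to 176 CPM outside. The fatty acid carrier FABP5 had 1.59, ODC1, the first enzyme of polyamine synthesis and a MYC target, 1.39, and the laminin receptor subunit ITGA6 1.28. PHLDA1, a target of ERK, was at 1.52 and was the 1 gene of 14 in the list of MAPK output that passed 2-fold, with a list median of 0.27. EGFR itself, the drug target, had 1099.9, 936, 719, 721, 725, 738 and 676 CPM in cluster 3, against 735, 716, 608, 505, 465, 448 and 479 CPM in other listed cells. It was higher in cluster 3 in each of the 7 populations, with a mean log2 ratio of 0.51 (0.24 to 0.72), below 2-fold.

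**Figure D2:**
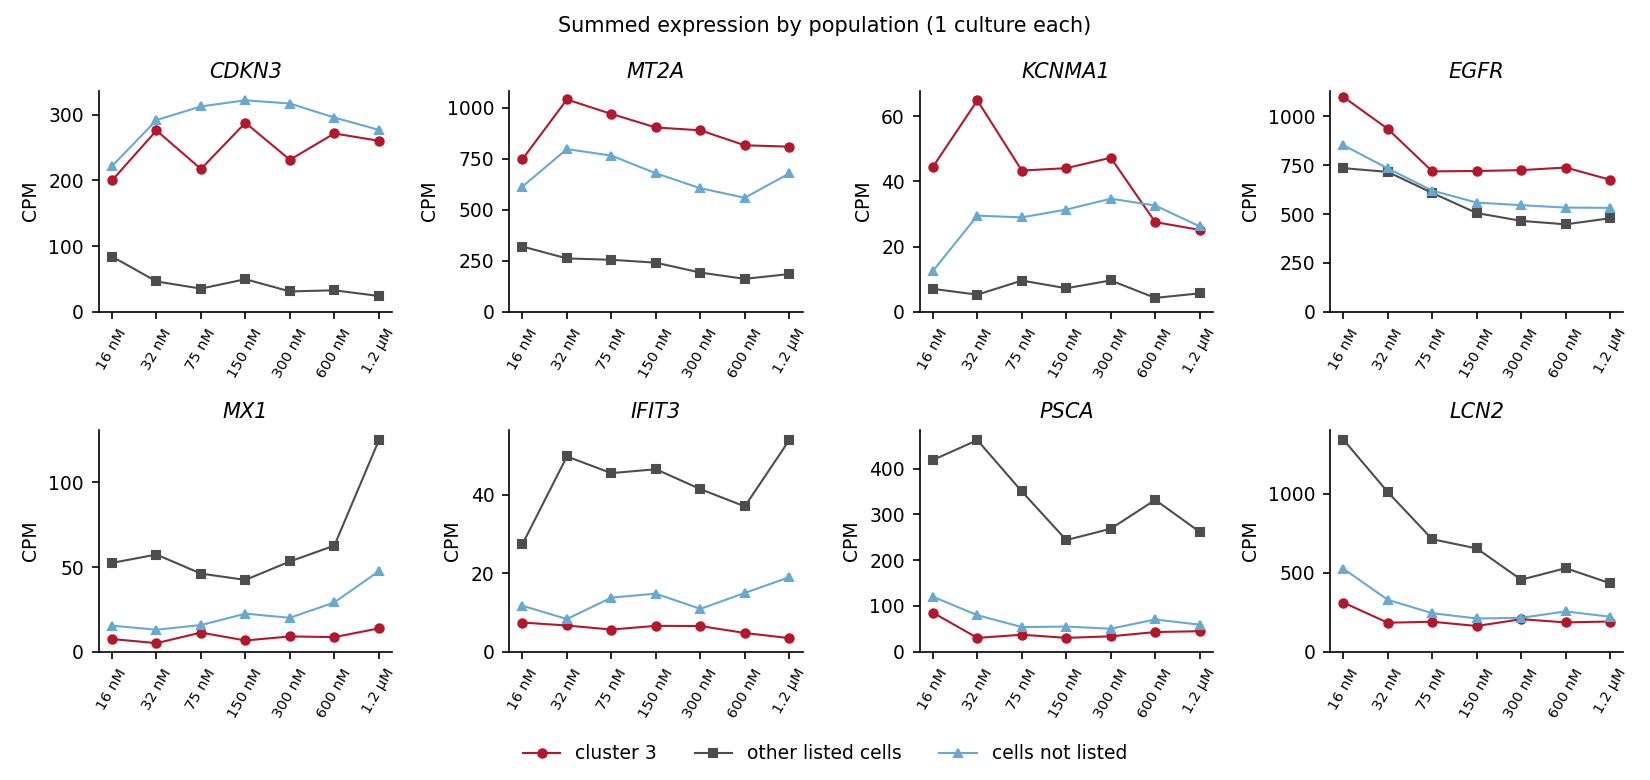
CPM of 8 genes in each adapted population, 1 culture each, for cluster 3, other listed cells and cells that the authors' table does not list. CDKN3, MT2A, KCNMA1 and EGFR are higher in cluster 3 than in other listed cells at every dose, MX1, IFIT3, PSCA and LCN2 are lower, and in MT2A, MX1, IFIT3, PSCA and LCN2 the cells not listed lie between and nearer to cluster 3.

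Interferon-stimulated genes were the list with the most genes lower in cluster 3. Of 30 measured, 25 were lower and 0 higher, with a median ratio of -1.76, beside 2.78% of all genes lower and 1.96% higher. The list median was -1.11 at 16 nM and -2.24 to -1.49 at the 6 higher doses. MX1, a dynamin-like antiviral GTPase, had 7.41, 4.99, 11.2, 6.56, 8.96, 8.54 and 13.7 CPM in cluster 3 with dose, against 52.4, 57.4, 46.1, 42.4, 53.3, 62.6 and 125 CPM in other listed cells. IFIT3, which binds foreign RNA together with IFIT1, had 3.43 to 7.41 CPM in cluster 3 and 27.4 to 53.9 CPM outside it, and IFI6, a small membrane protein, 1.66 to 18.5 CPM in cluster 3 and 38.3 to 87.3 CPM outside it. The counts behind these 3 genes were small in cluster 3, at 1 to 14 UMIs per population. ISG15, a ubiquitin-like modifier with more counts, had 77.8, 58.2, 47.3, 37.5, 57.8, 47.5 and 44.5 CPM in cluster 3, against 186, 213, 150.3, 191, 132, 210.0 and 312 CPM in other listed cells. The membrane antiviral factor IFITM3 was lower with a mean log2 ratio of -1.71 (-2.32 to -1.05), and XAF1, an interferon-induced partner of the apoptosis inhibitor XIAP, with -2.39 (-3.60 to -1.18). OASL, of the oligoadenylate synthetase family, averaged 1.65 CPM in cluster 3 and 35.0 CPM in other listed cells, and had no UMI in cluster 3 at 16 and 75 nM. Of 11 genes of MHC class I presentation, several of which interferon also raises, 0 passed 2-fold, with a median of -0.36, and HLA-B was at -0.71.

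The summed interferon level was 441 to 781 CPM in cluster 3 over the 7 populations and 1268 to 2151 CPM in other listed cells. The highest value in cluster 3 was at 16 nM. Cells not listed had 613 to 952 CPM. Most listed untreated cells were in cluster 0, whose summed level was 440.4 CPM over all populations.

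Single genes outside the interferon list were also lower in cluster 3 in every population. PSCA, a surface antigen of glandular epithelium anchored by a lipid, had 85.2, 29.9, 36.9, 30.0, 33.4, 42.7 and 44.5 CPM in cluster 3, against 419, 462, 350.2, 244, 269, 332 and 262 CPM in other listed cells. The mean log2 ratio was -2.97 (-3.91 to -2.29). LCN2, lipocalin 2, which binds bacterial iron carriers, averaged 204 CPM in cluster 3 and 734 CPM outside, with -1.76 (-2.46 to -1.15). SOX6, a transcription factor, had 4 UMIs at 16 nM, 0 at 32 nM, 5, 4, 6, 8 and 11 in cluster 3, that is 0 to 14.8 CPM, against 24.8 to 62.6 CPM in other listed cells. HS3ST5, which sulfates heparan chains, had a mean ratio of -2.62 (-3.61 to -1.61), the forkhead factor FOXP2 -2.41 (-5.24 to -1.53) and the synaptic adhesion gene LRRTM4 -2.27 (-3.00 to -1.39). The lowest ratio of FOXP2, at 16 nM where cluster 3 had no UMI of it, depends on the 1 CPM added. RARRES3, a retinoid-induced phospholipase, had -2.24 (-2.91 to -1.27), the mucin MUC20 -2.06 (-3.04 to -1.43), IGFBP5, which binds insulin-like growth factors, -2.15 (-2.66 to -1.18), and SLC40A1, the iron exporter ferroportin, -1.70 (-2.49 to -1.12). The 8 epithelial markers had a median ratio of -0.57. The keratins KRT8 (-0.71), KRT7 (-0.61) and KRT19 (-0.59) were below 2-fold.

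C3, PDZK1IP1, RARRES1 and C15orf48 were among the lowest genes with all populations pooled, at 24.4-fold (13.2 to 51.1), 11.2-fold (9.09 to 13.8), 8.62-fold (6.68 to 11.3) and 6.08-fold (5.49 to 6.75) lower in cluster 3. Within populations their mean log2 ratios were -2.13, -1.64, -1.72 and -1.24, where C3 with 2.49 CPM in cluster 3 and 9.89 CPM outside was below the minimum of 10 CPM. With the mean of per-cell CPM, C15orf48 was at -0.90, short of 2-fold. Listed persisters outside cluster 3 had 123 CPM of the complement protein C3 and 1185 CPM of C15orf48. Persisters were 654 of the 3099 other listed cells.

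Other lists had fewer genes past 2-fold. Of all 9384 genes measured, 1.96% were higher and 2.78% lower, and for lists of few genes 1 gene is a larger share than these. Of 18 p53 targets 1 was higher and 0 lower (median 0.10), of 23 glycolysis and hypoxia genes 0 and 0 (median 0.25), of 31 nuclear genes of the respiratory chain 0 and 0 (median -0.05), and of 22 targets of YAP and TEAD 1 higher, FJX1 at 1.43, and 1 lower, CTGF at -1.29 (median 0.06). Of 23 extracellular matrix and mesenchymal genes 2 were higher, LOX and TGFBI, and 2 lower, FN1 and FBN1 (median 0.04). Of 10 integrins 1 was higher, ITGA6, and 1 lower, ITGB6 (median 0.15), and of 25 epithelial junction and keratin genes 0 were higher and 2 lower (median -0.18). Of 9 D-type cyclins and CDK inhibitors 1 was lower, CDKN2B, the inhibitor p15 of CDK4 and CDK6, at -1.05 (-1.67 to -0.43), and none higher. Of 14 NF-kappaB targets 4 were lower, with a median of -0.45, and of 8 complement genes 2, with a median of -0.69.

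**Figure D3:**
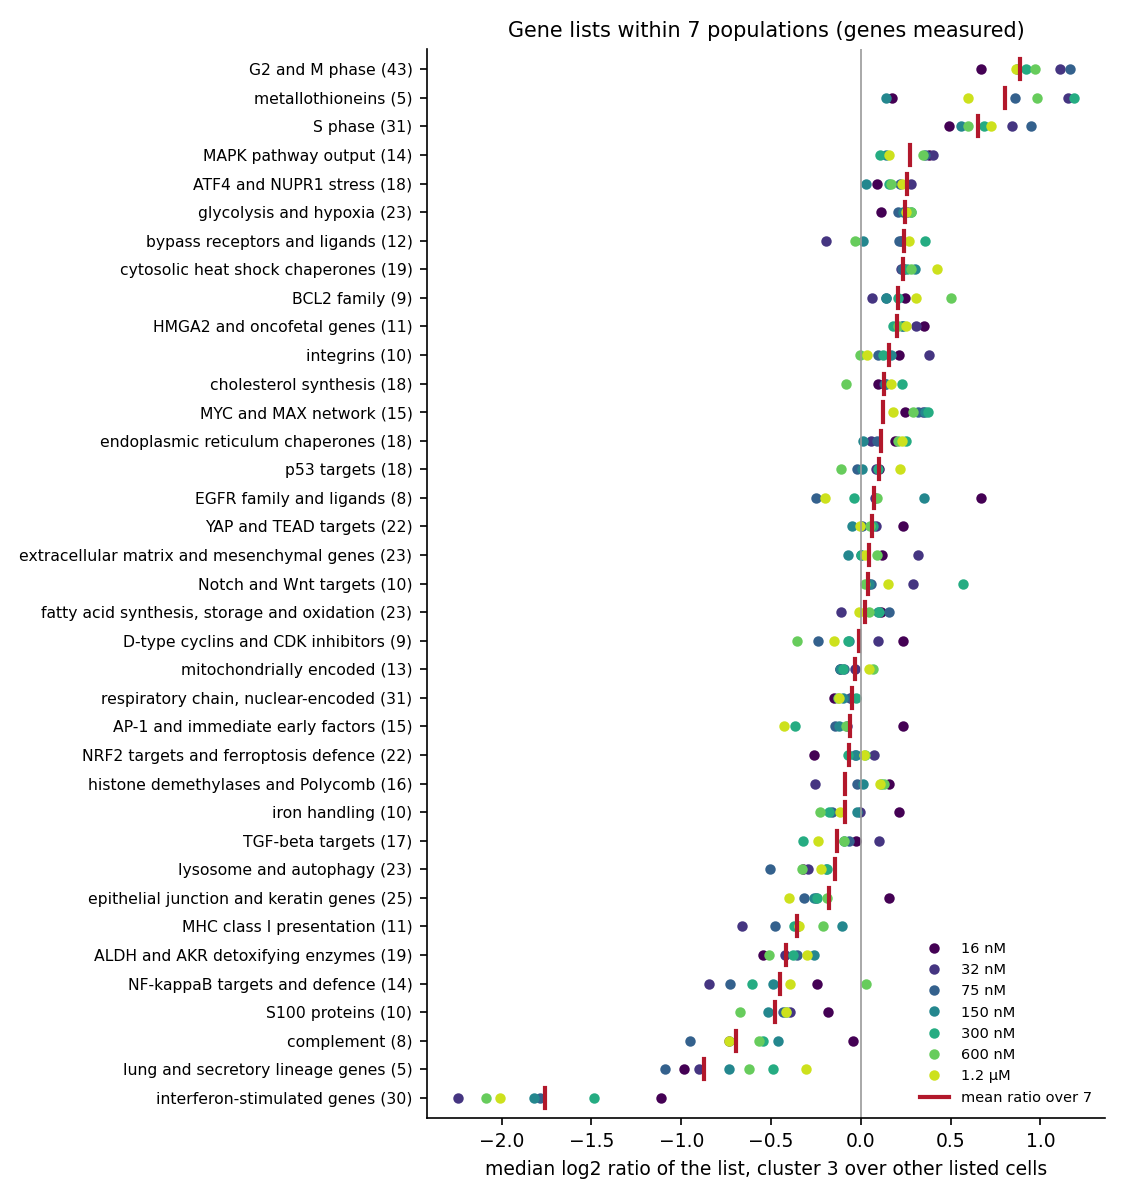
Median log2 ratio of each gene list, cluster 3 over other listed cells, as 1 point per adapted population, with the median of the mean ratios as a red bar and the number of genes measured in parentheses. The G2 and M phase list is at 0.89 and the interferon list at -1.76, and every population lies on the same side of 0 in both.

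Cluster 4, the other main cluster at high dose, was compared with cluster 3 in the 6 populations from 32 nM to 1.2 µM that held at least 30 cells of each. Of 9350 genes, 275 (2.94%) were higher in cluster 3 and 242 (2.59%) lower. The G2 and M phase list had 23 of 42 genes higher and 0 lower, with a median of 1.13, and the interferon list 0 of 29 higher and 24 lower, with a median of -1.68. PTTG1 had a mean log2 ratio of 3.71, MT2A 2.16, PSCA -2.97 and IFI6 -2.96. Against cluster 2, in the 4 populations from 16 to 150 nM, 404 of 9494 genes (4.26%) were higher and 430 (4.53%) lower. Against cluster 0, of which most cells are untreated, 582 of 9362 genes (6.22%) were higher and 370 (3.95%) lower, a contrast in which drug and cluster cannot be told apart. There the G2 and M phase list had a median of -0.08, with 0 of 44 genes past 2-fold, and 7 of 17 MAPK output genes were lower. Cluster 1, which held 89.0% of listed persisters, differed in 564 of 9547 genes higher in cluster 3 (5.91%) and 601 lower (6.3%). LCN2 had 205 CPM in cluster 3 and 5284 CPM in cluster 1, MT2A 883 CPM in cluster 3 and 211 CPM in cluster 1, and EGFR 760 CPM in cluster 3 and 734 CPM in cluster 1.

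To compare single cells at equal depth, 3410 UMIs were drawn from each cell, and 113 cluster 3 cells with fewer (10.2%) were left out, 35.1% of those at 16 nM. Before drawing, the difference is the one given above in CPM. In cluster 3 a cell had a mean of 8.75 UMIs of G2 and M phase genes (median 8) and 1.67 of interferon genes (median 1), against 3.73 of G2 and M phase genes (median 3) and 5.09 of interferon genes (median 4) in cluster 4. Cluster 0, of which most cells are untreated, lay near cluster 3, with means of 9.03 G2 and M phase UMIs (median 8) and 1.48 interferon UMIs (median 1). Cluster 2 had means of 5.37 and 5.21, and cluster 1 of 3.43 and 3.84. The highest interferon count of a cluster 3 cell was 13, against 42 in cluster 4. The 2 differences between clusters 3 and 4 were then set side by side within cells from 32 nM to 1.2 µM. Among cells with 0 to 3 G2 and M phase UMIs, 114 cells of cluster 3 averaged 1.72 interferon UMIs and 479 cells of cluster 4 averaged 5.203. Among cells with 7 to 10, 271 cells of cluster 3 averaged 1.56 and 85 of cluster 4 averaged 4.96. Metallothionein UMIs averaged 2.90 in cluster 3 and 0.904 in cluster 4 in the first of these bins, and 3.64 in cluster 3 and 1.25 in cluster 4 in the second. Among cells with 4 to 6, 258 cells of cluster 3 averaged 1.71 interferon UMIs and 378 of cluster 4 averaged 5.19. Above 10, 290 cells of cluster 3 averaged 1.57, and only 7 cells of cluster 4 remained, with 2.71. The part of cell cycle phase in the interferon difference was not tested.

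**Figure D4:**
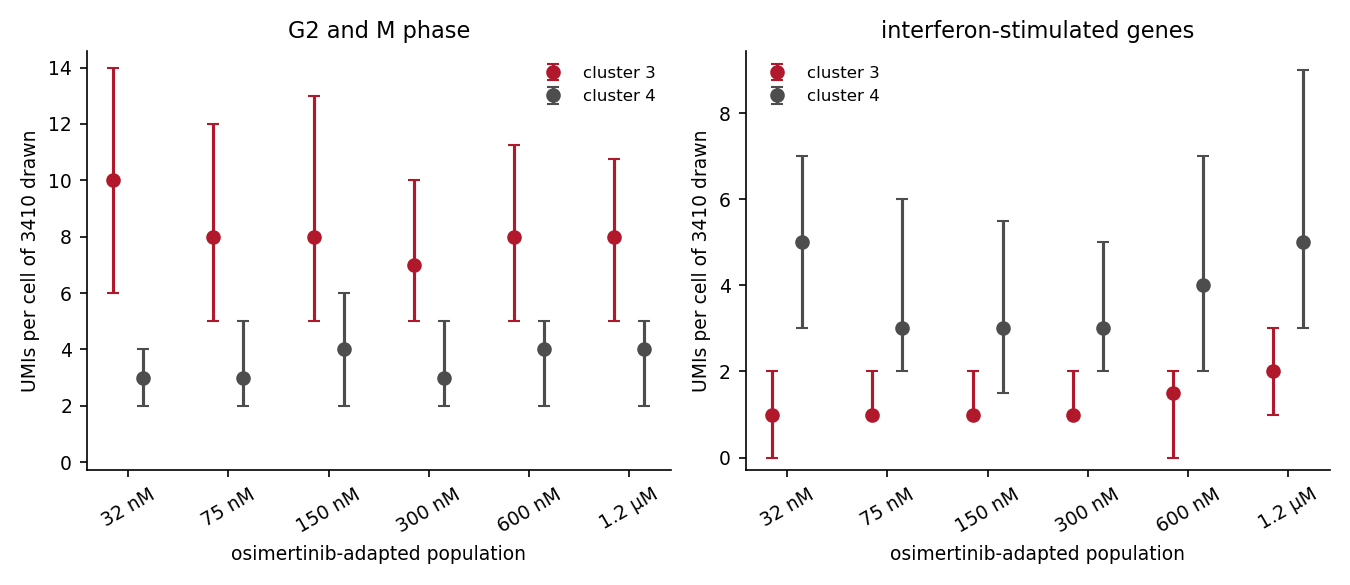
UMIs per cell of G2 and M phase genes and of interferon-stimulated genes after drawing 3410 UMIs per cell, with medians as points and quartiles as bars, cluster 3 left of cluster 4 in each population. Medians for G2 and M phase genes are 7 to 10 in cluster 3 and 3 to 4 in cluster 4, and those for interferon genes are 1 to 2 in cluster 3 and 3 to 5 in cluster 4.

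The cells that the authors' table does not list carry no cluster number in it. Against them, within the same 7 populations, cluster 3 was at least 2-fold lower in 353 of 9343 genes (3.78%) and higher in 11 (0.118%). Of 51 G2 and M phase genes 42 were lower in cluster 3, of 39 S phase genes 27, and of 18 interferon genes 3. The few genes higher in cluster 3 included SYT14, a synaptotagmin (36.3 CPM, against 12.3 CPM in cells not listed), the laminin chain LAMA4 (35.6 CPM in cluster 3, 14.9 CPM in cells not listed), the transcription factor SOX9 (37.8 CPM in cluster 3, 14.5 CPM in cells not listed) and LOX (25.7 CPM in cluster 3, 12.001 CPM in cells not listed), named after their values were seen. MT2A had 559 to 798 CPM in cells not listed, PSCA 50.01 to 120.1 CPM, KCNMA1 12.5 to 34.7 CPM and MX1 12.9 to 47.5 CPM. KCNMA1 was higher in cells not listed than in cluster 3 at 600 nM (32.6 against 27.5 CPM) and 1.2 µM (26.2 against 25.1 CPM). At the other doses KCNMA1 was higher in cluster 3. In MT2A, PSCA, LCN2 and MX1 the cells not listed were between cluster 3 and the other listed cells in each population.

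Persisters, untreated cells and the 8 nM population took no part in the comparison within populations, and in them the cells not listed were set against the listed cells outside cluster 3. No cluster 3 cell enters this contrast, and many genes higher in cluster 3 are genes of cell division. The counts below are therefore a description and no test of the cluster. Cell cycle genes differed throughout this contrast: in persisters 49 of 51 G2 and M phase genes were higher in the 150 cells not listed than in the 654 listed cells. Of the 21 genes higher in cluster 3 in all 7 populations, 19 were measured in persisters and 18 were at least 2-fold higher in the cells not listed, where 7.61% of 9548 genes were. Of the 54 lower genes, 44 were measured and 38 were at least 2-fold lower, where 5.41% of all genes were. The S phase and G2 and M phase lists held 7 of the 18, and CDKN3, PBK, MELK, PRC1 and TK1, which those lists do not hold, are also known for cell division or DNA synthesis. The others included the channel gene KCNMA1, with 32.6 CPM in persisters not listed and 9.26 CPM in listed ones (3.52-fold, 2.15 to 5.78), MT2A with 733 CPM in those not listed and 218 CPM in listed ones (3.36-fold, 3.04 to 3.70) and RFLNB with 52.8 CPM in those not listed and 13.1 CPM in listed ones (4.04-fold, 2.72 to 6.04). On the lower side PSCA had 98.6 CPM in persisters not listed and 471 CPM in listed ones (4.78-fold lower, 3.95 to 5.84), and LCN2 had 1359 CPM in those not listed and 5407 CPM in listed ones (3.98-fold lower, 3.78 to 4.19).

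Some interferon genes did not reach 2-fold in persisters. Of 21 genes of the whole list measured there, 9 were lower and 1 higher in the cells not listed (median -0.79). Beside these, 5.41% of all genes were lower and 7.61% higher. In untreated cells 0 of 10 were lower (median -0.14), and at 8 nM 7 of 22 (median -0.70). Among the 16 interferon genes lower in all 7 adapted populations, 9 were measured in persisters and 7 were 2-fold lower. MX1 had 9.68 CPM in persisters not listed and 13.1 CPM in listed ones, and ISG15 56.3 CPM in those not listed and 82.2 CPM in listed ones. DDX60, an interferon-induced helicase outside the list, had 25.5 CPM in persisters not listed and 22.9 CPM in listed ones. In untreated cells 7 of 19 and 8 of 25 measured genes passed 2-fold in the direction of cluster 3, beside 3.13% and 1.28% of 9193 genes, and at 8 nM 13 of 18 and 20 of 43, beside 5.17% and 1.75% of 9427. In untreated cells MT2A had 647 CPM in cells not listed and 461 CPM in listed ones.

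**Figure D5:**
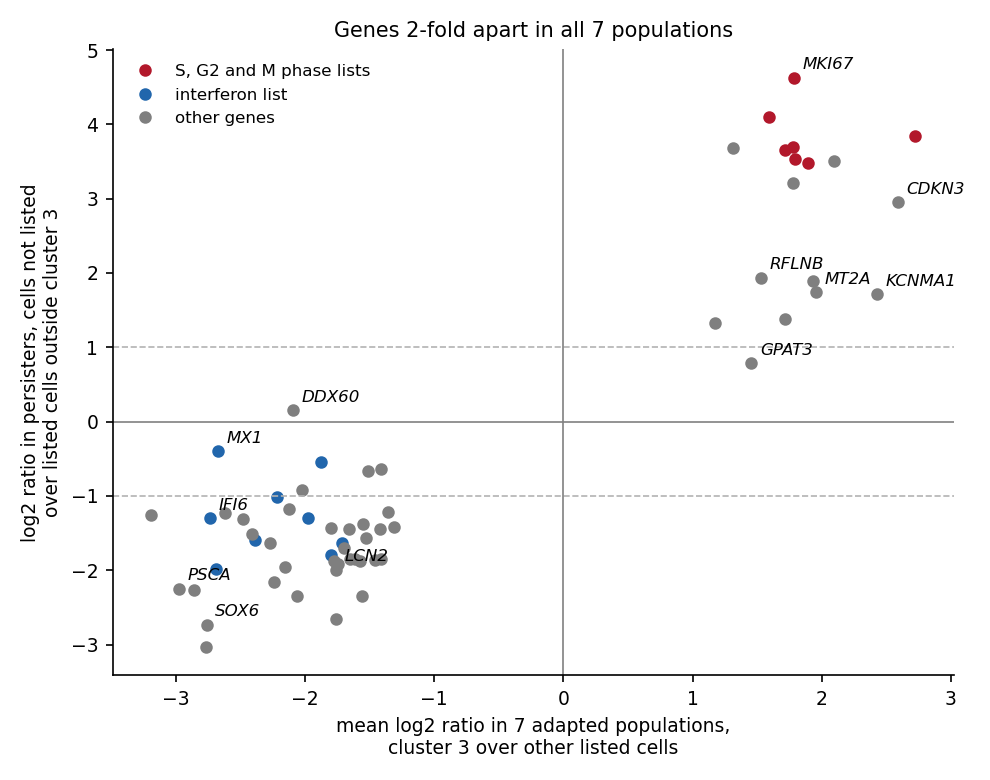
Each point is 1 gene at least 2-fold apart in all 7 adapted populations and measured in persisters, without clone-named and antisense genes. The x axis is the mean log2 ratio of cluster 3 over other listed cells, the y axis the log2 ratio in persisters of cells not listed over listed cells outside cluster 3, and dashed lines mark 2-fold. KCNMA1, MT2A and RFLNB lie above the upper line with the cell cycle genes, and MX1 and DDX60 lie between the lines.

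Distances between the cells of cluster 3 at different doses are a description, since the clusters group like cells. At equal depth, over 1879 genes with at least 100 CPM, the root mean square log2 difference between cluster 3 cells of any pair of the 6 populations from 32 nM to 1.2 µM was 0.36 to 0.38, and between the 16 nM cells and these 0.42 to 0.45. The same distance between cluster 4 cells of the 6 populations was 0.36 to 0.43, and that between cluster 3 and cluster 4 of the same population 0.54 to 0.64. Between the 1.2 µM and 32 nM cells of cluster 3, 108 of 6468 genes (1.67%) were higher at 1.2 µM and 45 (0.696%) lower, and in cluster 4 these were 292 (3.81%) and 73 (0.953%) of 7662 genes. Summed UMIs at 1.2 µM and 32 nM were 875885 and 601520 in cluster 3, and 1308624 and 408675 in cluster 4. The 32 nM cells numbered 104 in cluster 3 and 71 in cluster 4. The part of this depth in the counts of genes was not tested. SAA1, an acute-phase protein, had 112 CPM at 1.2 µM and 24.9 CPM at 32 nM in cluster 3 (4.49-fold, 2.59 to 8.32), and in cluster 4 it had 54.3 CPM at 1.2 µM and 53.8 CPM at 32 nM. OXTR, the oxytocin receptor, was 3.26-fold higher at 1.2 µM (1.73 to 6.68), and the potassium channel KCNQ5 4.37-fold lower (1.99 to 10.6), at 10.3 CPM at 1.2 µM and 44.9 CPM at 32 nM. KCNQ5 was also lower at 1.2 µM in cluster 4, with 17.6 CPM there and 100.3 CPM at 32 nM. The genes named for this contrast were chosen after their values were seen. EGFR and the chaperone HSP90AA1 were highest at 16 nM, where HSP90AA1 had 3911 CPM in cluster 3, and at 32 nM it had 1676 CPM and from 75 nM to 1.2 µM 1272 to 1405 CPM. High chaperone levels were not particular to cluster 3. The highest sum of the cytosolic heat shock chaperone list in any population was 9951 CPM in cluster 3 and 10092 CPM in cluster 2. It was 10062 CPM in other listed cells and 12553 CPM in cells not listed. At 1.2 µM the summed interferon level of cluster 3 was 533 CPM.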

How the data were processed

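For PC9 the authors deposited a table of whole UMI counts, with genes in rows and cells in columns. Cells were tagged by population, pooled and run on the Chromium platform, per the labels' protocols. Cell Ranger 7.0.0 and the build GRCh38 are named in the submitters' processing notes. The authors' deposited cell table gives total counts, genes, the percent of mitochondrial UMIs and the cluster of the listed cells, per the file headers, and totals and percents matched the counts, the percents within 0.001. No doublet caller was run.

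Genes named are the 12 highest and 12 lowest of the pooled ratio and the 10 highest and 10 lowest of the ratio within populations, with at least 25 CPM in the higher group. EGFR and up to 4 members of each list are also named, and for list members the minimum was 10 CPM. Other names were chosen after their values were seen. The cluster and the lists were chosen with earlier results of these data known. With 1 culture per population no p-value is given.

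Software was pandas 2.3.3, scipy 1.17.1 and numpy 2.4.6 under Python 3.11.15. The calculation of ratios was run on simulated counts with counting error only. These held no further variation between cells or cultures, so they are no test of the results. Alternatives are a pseudocount of 5, no CPM filter, a minimum of 50 CPM, 3-fold, scaling by TMM (edgeR 4.0.16) or size factors (DESeq2 1.42.0, R 4.3.3), totals without mitochondrial and ribosomal protein genes, the mean of per-cell CPM, cells over 2 times the median UMIs left out, thinned cells, and each population left out. The A375 data of the series were not used here.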

Additional observations from a re-analysis of the deposited data

How the results depend on the processing

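No paired analysis was possible because the single PC9 pool has no replicate numbers that pair cultures, and the ratios within populations already set cells of the same culture against each other. The counts within populations, 184 higher and 261 lower, were 99 and 166 with a pseudocount of 5 CPM, 61 and 81 at a minimum of 50 CPM, and 42 and 80 at 3-fold. Without the CPM filter 482 were lower, and with thinned cells 426. The pooled counts, 144 and 259, were 71 higher at a pseudocount of 5 CPM, 444 lower without the filter, 57 and 95 at 50 CPM, and 21 and 88 at 3-fold. Without the filter 12253 genes were measured within populations, against 9384. With thinned cells 9402 were measured, and the cause of the higher count was not tested. The other settings ask for a larger change or level. TMM factors, size factors, totals without mitochondrial and ribosomal protein genes, per-cell means and leaving out cells of many UMIs kept each count within 1.5 times. Leaving out 1 population at a time gave 173 to 198 higher and 261 to 297 lower genes within populations, and 115 to 188 and 211 to 281 pooled. The share of listed cells, 26.4%, lay between 24.1% and 30.8% when 1 population was left out, and cluster 3 was 9.85% of all cells of the count table. No named gene that was at least 2-fold apart in the main setting changed direction in these settings. Named genes below 2-fold were not checked for a change of direction. With TMM factors the median of all genes was 0.01 pooled and -0.03 within populations. Depth limits the 16 nM population, with 57 cells in cluster 3, where 3 counts correspond to 11.1 CPM.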
